A study of Mus musculus with 4 samples.

Results

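Reg3b, Reg3g, Reg3a and Reg1 were chosen by symbol, as 4 of the 32286 genes counted in single cells of the mouse distal jejunum after ischemia and reperfusion. They were read in 4 mice, 2 per group, all sampled 18.5 h after a 30 min clamp of the superior mesenteric artery. Control mice were Foxc1fl/fl;Foxc2fl/fl littermates without Cre, and EC-Foxc-DKO mice carried Cdh5-CreERT2 with the same floxed alleles. Cdh5-CreERT2 is a tamoxifen-inducible Cre recombinase driven by the vascular endothelial cadherin promoter, so the deletion of Foxc1 and Foxc2 was aimed at blood and lymphatic endothelial cells and not at the epithelium that makes the Reg proteins. The male mice of both groups received tamoxifen from 7 to 8 weeks of age on 5 consecutive days, 12 days before surgery. All 4 mice were injured, so no value here describes the uninjured gut.

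Reg proteins are small secreted C-type lectins. Reg3b and Reg3g are made by enterocytes and Paneth cells of the small intestine and act in the lumen, where Reg3g binds the peptidoglycan of Gram-positive bacteria and helps to keep them away from the epithelium, and Reg3b acts mainly against Gram-negative bacteria. Reg3a belongs to the same subfamily, and Reg1 was first known from the regenerating pancreas and is linked with growth and repair of the mucosa. Interleukin-22 acting through STAT3 and microbial signals acting through MyD88 are known inducers of the Reg3 genes in the gut.

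The 4 genes lay in 1 cluster on mouse chromosome 6 that also holds Reg2 and Reg3d. In the GRCm38 (mm10) build, with GENCODE M21 annotation, Reg3b (ENSMUSG00000071356) was at chr6:78370657-78373466 on the plus strand and Reg3a (ENSMUSG00000079516) at chr6:78380709-78383827 on the plus strand. Reg1 (ENSMUSG00000059654) was at chr6:78422711-78428667 on the plus strand, and Reg3g (ENSMUSG00000030017) at chr6:78466269-78468872 on the minus strand. The 4 genes spanned 98.2 kb, and the first annotated transcript of each had 6 exons. The counts come from the 3′ ends of transcripts, and none of the 470 words of 31 bases in the last 500 bases of any of the 4 transcripts occurred in a transcript of another gene.

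The upstream sequences of 3 members are shown because Reg3b and Reg3g had the most similar levels over cell types, whereas Reg3a stood in the opposite order to Reg3b over the bottom enterocytes of the 4 mice. They are the 140 bases before the RefSeq start of each gene (GRCm38.p6), written in the direction of transcription, with matches to TTCNNNGAA (the STAT motif) and TATAAA (the TATA box) in capitals. The windows are chr6:78370745-78370884 on the plus strand for Reg3b, chr6:78468875-78469014 on the minus strand for Reg3g and chr6:78380569-78380708 on the plus strand for Reg3a. The Reg3b window lies inside the GENCODE M21 gene given above, whose start is upstream of the RefSeq start.
Reg3b: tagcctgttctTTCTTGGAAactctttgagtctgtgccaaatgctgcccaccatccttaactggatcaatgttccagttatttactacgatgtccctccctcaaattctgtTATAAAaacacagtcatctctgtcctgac
Reg3g: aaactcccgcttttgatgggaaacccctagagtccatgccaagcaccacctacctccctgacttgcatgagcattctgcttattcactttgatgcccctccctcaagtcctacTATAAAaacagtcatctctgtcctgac
Reg3a: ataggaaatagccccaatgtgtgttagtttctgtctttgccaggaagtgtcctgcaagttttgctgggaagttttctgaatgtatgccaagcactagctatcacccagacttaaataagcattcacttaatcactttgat

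The Reg3b and Reg3g windows differed by 43 edits over 140 bases (69.3% identity), whereas Reg3a differed from Reg3g by 75 edits and from Reg3b by 73. The last 60 bases of the Reg3a window matched Reg3g best further upstream, at positions -108 to -48 before the Reg3g start, with 78.3% identity, so the annotated start of Reg3a lies upstream of the place that corresponds to the Reg3g start. A search of the 250 bases before each start found TTCNNNGAA, which reads the same on both strands, at position -129 of Reg3b and in none of the other 3 genes. TATAAA lay at -29 in Reg3b, -27 in Reg3g and -30 in Reg1, with a match on the other strand, TTTATA, at -161 in Reg3g. TTCNNNGAA was present in 7.02% of 32851 promoters of the same length, TATAAA on either strand in 12.4%, and AGATAA (the GATA motif, or TTATCT on the other strand), which was in none of the 4, in 9.99%. A match of letters is not evidence that a factor binds there.

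A barcode was kept as a cell when its mitochondrial genes held no more than 10% of its unique molecular identifiers (UMIs, the count of captured RNA molecules). This kept 5615 of 22679 barcodes, between 348 and 2742 per mouse, and 51 barcode sequences occurred in more than 1 library. The libraries held 15557181 to 72046346 UMIs, and Control replicate 2 was the smallest, with a median mitochondrial share of 54% over its barcodes and 79 epithelial cells. Clustering without the 4 genes gave 19 named cell types, 8 of them epithelial, and 371 cells stayed unnamed. The kept cells comprised 2375 epithelial cells and 2075 lymphocytes. In the epithelial cells the 6 epithelial lineage markers summed to 7249 to 10813 CPM (UMIs per 1000000 UMIs of the cells) against 200.1 to 483.8 CPM in the lymphocytes of the same mice. As for the targeted genes, Foxc1 had 2 and 9 UMIs in the 36 and 39 control endothelial cells and 1 and 0 in the 90 and 24 of the EC-Foxc-DKO mice, Foxc2 had none in these cells, and Cre had 3 and 2 UMIs in those of the EC-Foxc-DKO mice and none in those of the controls. Over every barcode, Foxc1 had 10, 20, 8 and 5 UMIs in the 4 mice, Foxc2 0, 2, 0 and 0, and Cre 0, 0, 8 and 5. Nothing in the sources used here says whether the Foxc1 tag lies inside the deleted part.

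Reg3b was the most abundant member, and bottom enterocytes, the absorptive cells of the lower villus, held the most of it. In bottom enterocytes Reg3b was at 21347 and 23930 CPM in Control replicates 1 and 2, and EC-Foxc-DKO replicates 1 and 2 27121 and 56738 CPM, a mean of 32284 ± 16473 (SD, n = 4 mice). EC-Foxc-DKO replicate 2 stood far above the other 3 mice, which lay close together. Of all UMIs of a bottom enterocyte population, the 4 members together held 3.05%, 3.62%, 3.81% and 8.35% in the same order.

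The other epithelial types had lower mean levels of Reg3b. Middle enterocytes had 12900, 17253 and 18590 CPM in the 3 mice with at least 10 such cells, which was lower than bottom enterocytes in 3 of 3 mice by 0.58 ± 0.13 on the log2(CPM + 1) scale (mean ± SD of the difference within a mouse). The Sprr2-high epithelial cells, a cluster whose leading gene was Sprr2a3, a small proline-rich gene, followed at 1770, 2910 and 21152 CPM, 2.77 ± 0.13 log2 units under the middle enterocytes in the 2 mice that had both. Crypt cells, the dividing and stem compartment, had 2325, 997.2, 4144 and 20012 CPM in the 4 mice. They did not differ from the Sprr2-high cells beyond their spread, with a difference of -0.27 ± 0.31 log2 units (Sprr2-high minus crypt, 3 mice).

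Top enterocytes, at the villus tip, had 1394 and 2667 CPM of Reg3b in Control replicate 1 and EC-Foxc-DKO replicate 1, the mice with at least 10 of them. Goblet and Paneth cells, the mucus-secreting cells and the antimicrobial granule cells of the crypt base, which formed 1 cluster, had 1036, 1516 and 10485 CPM in Control replicate 1 and the 2 EC-Foxc-DKO mice. Below the crypt cells, which lay 1.18 ± 0.26 log2 units above the goblet and Paneth cells in 3 mice, the epithelial types next to each other in the order did not differ beyond their spread. The values of the rarer types rested on few cells. In EC-Foxc-DKO replicate 1, 1 cell held 89.1% of the Reg3b UMIs of the 24 enteroendocrine cells, and without it their level was 373.4 CPM instead of 2973 CPM. In Control replicate 1 the top cell held 77.7% of Reg3b in the 22 tuft cells, the chemosensory cells of the villus, and 366.5 CPM remained without it.

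Reg3g followed Reg3b at a lower level. Bottom enterocytes had 8339, 11489, 10462 and 26574 CPM of Reg3g in Control replicates 1 and 2 and EC-Foxc-DKO replicates 1 and 2, and middle enterocytes had 4624, 6996 and 6836 CPM in the first 3 of these mice. Reg3g was lower in the middle than in the bottom enterocytes in 3 of 3 mice, by 0.73 ± 0.12 log2 units. As with Reg3b, EC-Foxc-DKO replicate 2 was highest, while Control replicate 2 and EC-Foxc-DKO replicate 1 were alike.

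The ratio of the 2 lectins was not the same in all types. Because each molecule is counted at its 3′ end, levels of different genes were compared as UMIs without division by length. Bottom enterocytes held 2.56, 2.08, 2.59 and 2.13 UMIs of Reg3b per UMI of Reg3g in the 4 mice. Top enterocytes held 1.86 and 1.81 in Control replicate 1 and EC-Foxc-DKO replicate 1. Goblet and Paneth cells held 1.19 (exact 95% binomial interval 1.04 to 1.36) in Control replicate 1, 1.09 (1 to 1.19) in EC-Foxc-DKO replicate 1 and 1.38 (1.34 to 1.42) in EC-Foxc-DKO replicate 2. The goblet and Paneth ratio was thus lower than that of the bottom enterocytes of the same mouse in 3 of 3 mice, and the intervals, which cover counting error only, did not meet. In the 4 goblet and Paneth cells of Control replicate 2 the order was turned, with 567 UMIs of Reg3g and 233 of Reg3b, nearly all of the Reg3b (98.3%) from 1 cell.

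Reg3a was far rarer and lay mainly in 1 cell type. Bottom enterocytes had 701.1 and 663.1 CPM of it in the controls, and those of the EC-Foxc-DKO mice 417.7 and 138.6 CPM. The order of the mice was the reverse of that for Reg3b, with EC-Foxc-DKO replicate 2 lowest. Middle enterocytes had 122.2, 90.45 and 111.6 CPM in the 3 mice with enough cells, lower than the bottom enterocytes in 3 of 3 mice by 2.42 ± 0.49 log2 units. Crypt cells had 85.89, 7.775, 23.66 and 25.43 CPM. Tuft, Sprr2-high, enteroendocrine, and goblet and Paneth cells lay between 0 and 64.49 CPM, and neighbours among them did not differ beyond their spread.

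Reg1 had its highest mean levels in crypt cells and bottom enterocytes, but not in every mouse. Crypt cells had 211, 27.21, 87.45 and 118.4 CPM in the 4 mice. Bottom enterocytes had 88.93, 157.2, 119.4 and 62.83 CPM in the same order. These neighbours did not differ beyond their spread, since crypt cells were higher in 2 of the 4 mice and the mean difference was -0.20 with an SD of 1.69 log2 units. In Sprr2-high cells Reg1 was at 11.37 and 10.87 CPM in Control replicate 1 and EC-Foxc-DKO replicate 1, and at 183.1 CPM in EC-Foxc-DKO replicate 2, where it was above the crypt cells. The median of these 177 cells of EC-Foxc-DKO replicate 2 was 0, and 18 of them held 84.65% of the Reg1 UMIs. Middle enterocytes had 5.101 to 23.31 CPM, and no UMI of Reg1 was read in the 222, 3, 99 and 2 top enterocytes of the 4 mice.

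**Figure D1:**
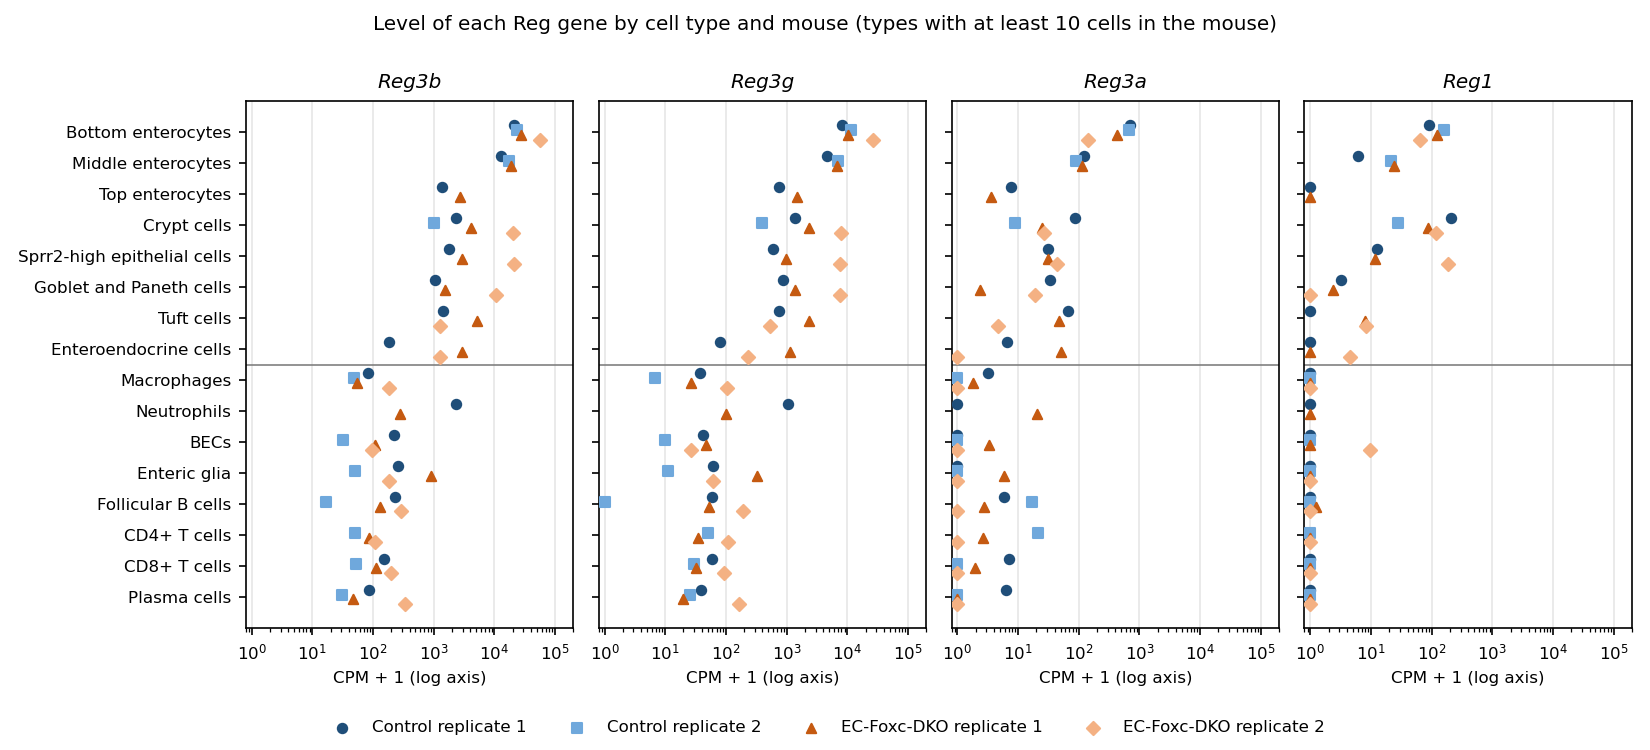
Level of each Reg gene (CPM + 1, log axis) in each cell type with at least 10 cells in the mouse, 1 point per mouse, with epithelial types above the line. Reg3b is highest in bottom enterocytes (21347 to 56738 CPM), and Reg3a lies mainly in bottom enterocytes (138.6 to 701.1 CPM). Reg1 lies in crypt cells and bottom enterocytes, with 183.1 CPM in the Sprr2-high cells of EC-Foxc-DKO replicate 2. In those Sprr2-high cells, 18 of 177 held 84.65% of the Reg1 UMIs.

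The other Reg genes did not share this pattern. Reg4, a secreted Reg protein used as an enteroendocrine marker, was at 7836, 7255, 9595 and 9436 CPM in the enteroendocrine cells of the 4 mice (5 cells in Control replicate 2) and at 0.9 to 16.9 CPM in bottom enterocytes. Reg3d was at 0.2 to 2.4 CPM in bottom enterocytes and Reg2 at 0 to 0.2 CPM. Extl3, a proposed receptor for Reg proteins, was at 0 to 4.8 CPM there.

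Lymphocytes were used to bound the RNA that reaches a droplet without being made by its cell. Across B cells, T cells and plasma cells, Reg3b was at 175.7, 41.69, 109.2 and 264.2 CPM in the 4 mice, on 167, 30, 781 and 207 UMIs. A UMI of Reg3b was seen in 49.0%, 21.3%, 37.3% and 53.2% of these lymphocytes. After thinning each cell to 1000 UMIs the shares were 19.1%, 5.72%, 12.2% and 19.0%, against 96.8% to 99.99% in the bottom enterocytes. In EC-Foxc-DKO replicate 2, 1 cell held 38.7% of the lymphocytes' Reg3b UMIs.

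Reg3g was at 27.8 to 139.1 CPM in lymphocytes and Reg3a at 0 to 5.261 CPM. Reg1 had 1 UMI over the 2075 lymphocytes. Among the Reg3b and Reg3g UMIs of lymphocytes the ratio was 3.15 (2.30 to 4.38) in Control replicate 1, 30 UMIs to 20 (0.82 to 2.79) in Control replicate 2, and 2.60 (2.27 to 2.97) and 1.90 (1.499 to 2.42) in the EC-Foxc-DKO replicates. Each interval held the ratio of all epithelial cells of that mouse, which was 2.61, 2.11, 2.56 and 2.25. The proportion of the 2 lectins in lymphocytes could thus not be told from that in the epithelium of the same mouse at this depth.

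Set against the lymphocytes of the same mouse, Reg3b was 121.5, 573.9, 248.4 and 214.7 times higher in bottom enterocytes and 13.2, 23.9, 38.0 and 75.7 times higher in crypt cells. These values depend on the cell limit, since the mean lymphocyte level of Reg3b was 147.7 CPM here and 653.2 CPM with a mitochondrial limit of 20%. Macrophages stood at 0.46 to 1.12 times the lymphocyte level and blood endothelial cells at 0.35 to 1.26 times. Both types were thus at or under that level, and their UMIs are read as background and not as expression. Enteric glia of EC-Foxc-DKO replicate 1 stood at 8.32 times, but 87.9% of that Reg3b came from 1 of the 39 cells and 127.7 CPM was left without it. Neutrophils of Control replicate 1, at 2362 CPM, had 92.2% of their Reg3b in 1 of 30 cells. Enteroendocrine cells were at 1.032, 27.2 and 4.83 times the lymphocyte level in Control replicate 1 and EC-Foxc-DKO replicates 1 and 2, and tuft cells at 8.17, 46.5 and 4.82 times, with most of the Reg3b of each from 1 cell except in the enteroendocrine cells of Control replicate 1 (42.2%). After thinning, 18.2%, 20.9% and 22.8% of the enteroendocrine cells had a UMI of Reg3b in the 3 mice with enough of them (Control replicate 1 first), against 19.1%, 12.2% and 19.0% of lymphocytes. For tuft cells the shares were 20.3%, 29.3% and 17.0%. By this share both types were above the lymphocytes in EC-Foxc-DKO replicate 1. By smaller margins, so were the enteroendocrine cells of EC-Foxc-DKO replicate 2 and the tuft cells of Control replicate 1. These shares rest on few cells and are given without an interval.

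Enterocytes were then ranked within each mouse by a score and divided into 4 equal bins. The score, the villus-top share, was the share of villus-top genes among a cell's UMIs of villus-top and villus-bottom genes. The villus-bottom genes were the paper's markers of its bottom enterocyte cluster in these data, with its markers Reg3b and Reg3g left out. A fall of Reg3b and Reg3g along the bins was therefore partly set in advance by the list. In Control replicate 1 Reg3b was at 21105, 17025, 5863 and 893.2 CPM from the bottom to the top bin. In EC-Foxc-DKO replicate 1 it was at 30453, 22033, 11046 and 2365 CPM. In Control replicate 2, with 12 or 13 cells per bin, it was at 9664, 27856, 33107 and 4003 CPM. The bottom bin exceeded the top bin in all 4 mice, but the 2 middle bins were highest in Control replicate 2.

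EC-Foxc-DKO replicate 2 had hardly any cells from the upper villus, with 2 top and 9 middle enterocytes beside 347 bottom enterocytes. At a clustering resolution of 1.0 only 184 cells of this mouse were named bottom enterocytes. Its 4 bins had 53236, 62302, 61164 and 47367 CPM of Reg3b, and the median villus-top share of its top bin was 0.47, against 0.99 in Control replicate 1. Over the 4 mice the bottom bin was above the top bin by 2.42 ± 2.05 log2 units for Reg3b and 2.096 ± 1.64 for Reg3g (mean ± SD). The difference was 6.16 ± 3.14 for Reg3a and 4.47 ± 2.65 for Reg1, in 4 of 4 mice for each gene. The size depends on the division: with 2 bins the differences were 0.92 for Reg3b and 0.59 for Reg3g, each in 3 of 4 mice, since Control replicate 2 had 17582 CPM of Reg3b in its lower and 23998 CPM in its upper bin. With the study's markers alone, which hold the same villus-bottom genes, Reg3g was higher in the bottom bin in 3 of 4 mice.

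Reg3a was at 659.2, 250.4, 30.7 and 5.506 CPM along the bins of Control replicate 1 and at 438.9, 197.3, 24.87 and 2.359 CPM in EC-Foxc-DKO replicate 1. Reg1 was almost confined to the lowest bin in Control replicate 1, with 747 UMIs there and 82, 2 and 0 in the bins above. The top bin held no UMI of Reg1 in Control replicate 1 and EC-Foxc-DKO replicate 1, and none of Reg3a in Control replicate 2, so these differences depend on the pseudocount of 1 CPM. In ranges of the villus-top share that were the same for all mice, a division added after the data were seen, the cells with a share under 0.25 had 21463, 23602, 29554 and 58106 CPM of Reg3b in the 4 mice. Those with a share of 0.25 to 0.5 had 15498, 16240 (9 cells), 17187 and 58823 CPM. EC-Foxc-DKO replicate 2 was thus highest in each of these score ranges too, while the other 3 mice lay close together in the second range. In bottom enterocytes 5 of the 8 villus-top genes had an estimate above 0 (EC-Foxc-DKO minus control, median log2 difference 0.33). So had 5 of the 8 villus-bottom genes (median 0.04), and no gene of either list passed the test. An equal share need not be an equal position, and the part of position was not tested.

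**Figure D2:**
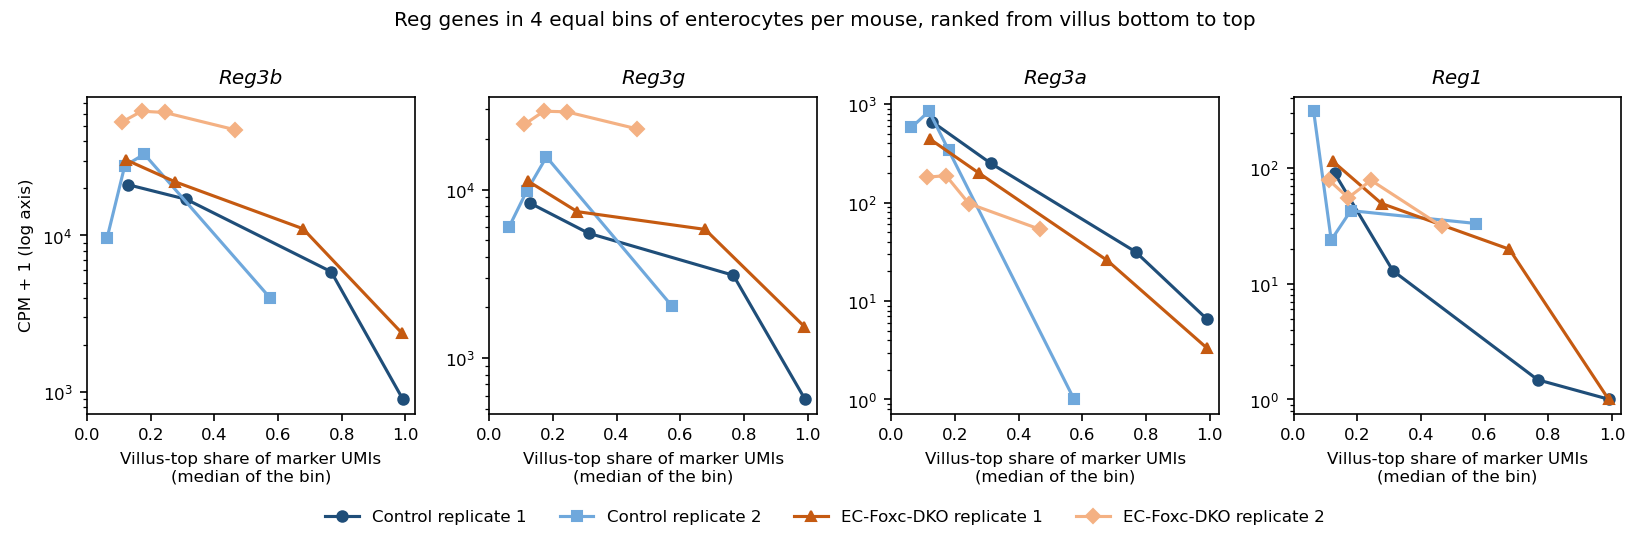
Level of each Reg gene (CPM + 1, log axis) in 4 equal bins of enterocytes per mouse, against the median villus-top share of the marker UMIs in the bin (0 bottom, 1 top). Reg3a falls from 659.2 to 5.506 CPM in Control replicate 1, and the bins of EC-Foxc-DKO replicate 2 end at a share of 0.47 with Reg3b still at 47367 CPM.

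Within the bottom enterocytes Reg3b was made by nearly every cell. The median cell had 191.9, 182.6, 262.6 and 563.9 UMIs of Reg3b per 10000 UMIs in the 4 mice. The 25th to 75th percentiles were 106.4 to 325 in Control replicate 1 and 456 to 675.9 in EC-Foxc-DKO replicate 2. The 10% of cells with the most UMIs of Reg3b held 21.1% to 33.7% of them. Reg3a had medians of 5.79, 5.98, 3.47 and 0.57 per 10000, and the top 10% of cells held 27.7%, 28.3%, 30.2% and 50.0% of its UMIs.

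Reg1 was distributed in another way. Its median was 0 in the bottom enterocytes of every mouse, and the top 10% of cells held 88.5% to 92.3% of its UMIs, with up to 27.9 to 34.3 UMIs per 10000 in the highest cell of each mouse. A UMI of Reg1 was seen in 25.4%, 33.3%, 33.6% and 19.3% of bottom enterocytes. In the crypt cells 55%, 46.7%, 48.7% and 61.1% of cells had a UMI, and the top 10% held 57.1% to 80.3%.

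Across single bottom enterocytes of a mouse, levels of Reg3b and Reg3g went together, with Spearman's rho of 0.67, 0.83, 0.68 and 0.76 over 193, 27, 122 and 347 cells. Reg3b and Reg3a were more loosely related (0.19, 0.20, 0.32 and 0.25), and Reg3b and Reg1 were not positively related in any mouse (-0.11, -0.28, -0.07 and -0.05). The cells of a mouse share its library, and in Control replicate 2 Reg3b also followed the total UMIs of the cell (0.50). In crypt cells, which were fewer (20, 15, 39 and 144), rho was 0.83, 0.57, 0.87 and 0.85 for Reg3b and Reg3g and 0.68, 0.60, 0.41 and 0.49 for Reg3b and Reg3a. For Reg3b and Reg1 it was 0.56, 0.34, 0.16 and 0.14 in crypt cells, positive in every mouse, unlike in the bottom enterocytes. All these values are given as a description.

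**Figure D3:**
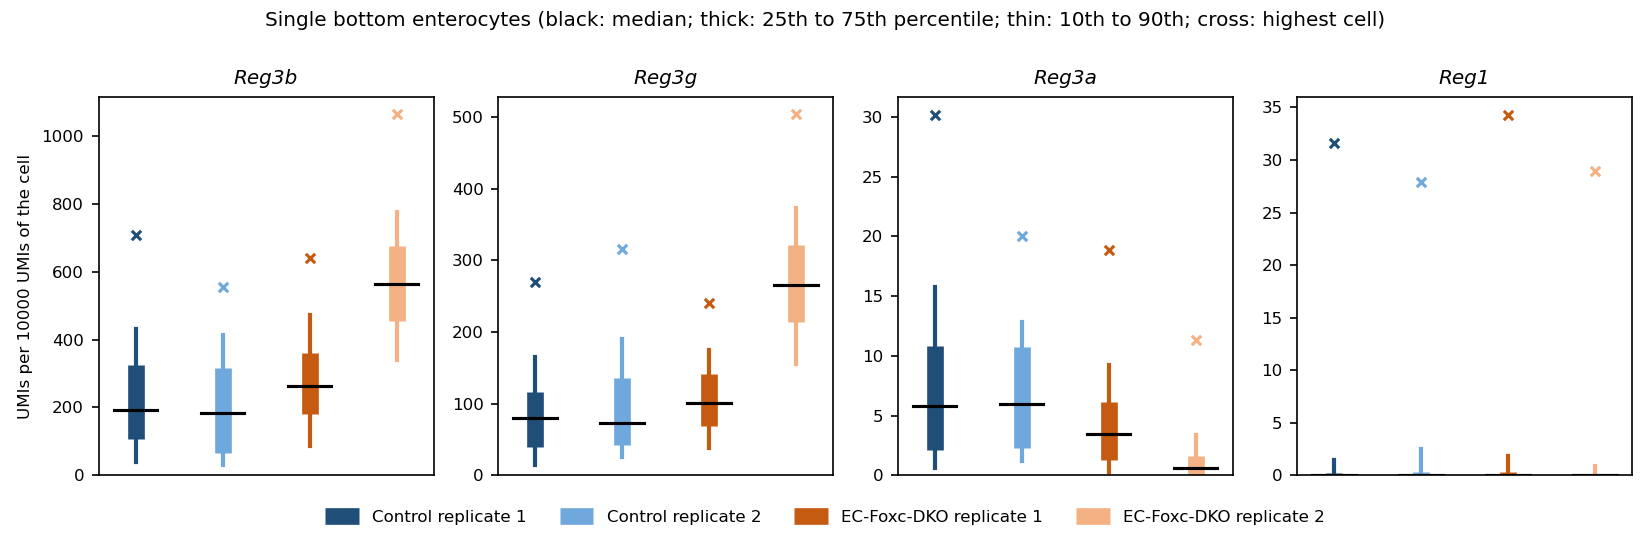
UMIs of each Reg gene per 10000 UMIs of the cell in single bottom enterocytes (193, 27, 122 and 347 cells), with the median, percentile ranges and highest cell of each mouse. Reg3b has a median of 563.9 in EC-Foxc-DKO replicate 2 against 182.6 to 262.6 in the others, Reg3a shows the opposite order, and Reg1 has a median of 0 with a highest cell of 27.9 to 34.3.

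Likeness to other genes was measured by Pearson's r of log2(CPM + 1) over 59 sums of a mouse and a cell type, which share libraries and depth. The gene most like Reg3b was Reg3g (r = 0.97, and 0.97 again over the 25 epithelial sums). The next were Fabp1, the liver-type fatty acid binding protein of enterocytes (0.93), Pm20d1 (0.90), Glod5 (0.90) and Hkdc1 (0.90). These 4 fell to 0.67 to 0.74 within the epithelial sums. After Reg3b and Fabp1, Reg3g was most like Pm20d1 (0.89), Lgals4, a galectin of the epithelium (0.88), and Hnf4g, an enterocyte transcription factor (0.88).

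Reg3a was most like Ugt2a3, a glucuronosyltransferase (0.87), Slc26a3, the chloride and bicarbonate exchanger (0.86), 0610005C13Rik (0.86) and Mogat2, an enzyme of fat absorption (0.85), and its r with Reg3b was 0.78. Reg1 was most like Mgat4c (0.87), Cftr, the chloride channel of crypt cells (0.87), Car9, a carbonic anhydrase (0.87), Aadac (0.86) and Tstd1 (0.85), and its r with Reg3b was 0.76. No Reg gene was among the 5 nearest genes of Reg3a or Reg1.

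Control and EC-Foxc-DKO mice were compared by UMIs summed per mouse and cell type, with edgeR's quasi-likelihood test, and p-values were adjusted by Benjamini-Hochberg over every gene in the fit. None of the 4 members passed an adjusted p of 0.05 in all epithelial cells, bottom enterocytes or crypt cells. Few or no other genes did, since the called share was 0% of 12331 genes in all epithelial cells (171 with an unadjusted p under 0.05, 7 called by DESeq2), 0% of 9694 in bottom enterocytes (278, and 6 by DESeq2) and 0% of 9309 in crypt cells (212, and 4 by DESeq2). Reg3b and Reg3g were also tested in lymphocytes, where neither passed and the called share was 0% in follicular B cells, 0% in CD8+ T cells and 0.606% in plasma cells.

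In bottom enterocytes Reg3b differed by 0.93 ± 0.40 on the log2 scale (EC-Foxc-DKO minus control, estimate ± SE) and Reg3g by 0.95 ± 0.46, both with an adjusted p of 0.994 by edgeR. Both EC-Foxc-DKO mice were above both controls for Reg3b, as they were for 16.2% of all genes tested, but EC-Foxc-DKO replicate 1 (27121 CPM) lay nearer to the controls than to EC-Foxc-DKO replicate 2. For Reg3g the groups overlapped, since EC-Foxc-DKO replicate 1 was below Control replicate 2. Without EC-Foxc-DKO replicate 2 the estimates were 0.24 and 0.06.

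Reg3a differed in the opposite direction in bottom enterocytes, by -1.29 ± 0.43 (edgeR adjusted p 0.994). Both EC-Foxc-DKO mice were below both controls, as they were for 16.2% of the genes tested. Without EC-Foxc-DKO replicate 2 its estimate was -0.73. Reg1 differed by -0.38 ± 0.36, and its groups overlapped. Without EC-Foxc-DKO replicate 1, the lone remaining EC-Foxc-DKO mouse being assumed to vary like the controls, Reg3b, Reg3g and Reg3a passed (edgeR adjusted p 4.4e-05, 3.8e-05 and 2.46e-07), among 883 genes in all. Those calls describe 1 mouse against 2.

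In crypt cells the estimates were larger, 2.84 ± 0.76 for Reg3b and 2.54 ± 0.72 for Reg3g (edgeR adjusted p 0.999 for both). Both EC-Foxc-DKO mice were above both controls for each gene, as for 13.1% of the genes tested in crypt cells. EC-Foxc-DKO replicate 2 had 20012 CPM of Reg3b against 997.2 to 4144 in the other mice, and without it the estimates were 1.37 and 1.46. Its median crypt cell had 182.9 UMIs of Reg3b per 10000 against 5.42, 1.29 and 12.19 in the others, so the level was not set by a few cells. Reg1 differed by -0.27 ± 0.69 and Reg3a by -1.10 ± 0.69 in crypt cells. Without Control replicate 1, Reg3b, Reg3g and Reg1 passed, but the Reg1 estimate had turned from -0.27 to 1.91. Without Control replicate 2, Reg3a passed with -1.77. Those calls set 2 mice against 1 control, which is assumed to vary like the EC-Foxc-DKO mice. The controls had 20 and 15 crypt cells.

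Over all epithelial cells Reg3b was at 11893, 13924, 15031 and 34841 CPM, a difference of 0.97 ± 0.51, and Reg3g at 4549, 6612, 5874 and 15489 CPM, a difference of 0.97 ± 0.53. Reg3a was at 275.7, 292.1, 161.6 and 75.76 CPM (-1.23 ± 0.44) and Reg1 at 44.24, 75.37, 55.58 and 100.2 CPM (0.43 ± 0.39). Both EC-Foxc-DKO mice were higher than both controls for Reg3b, as for 10.2% of genes, and lower for Reg3a, as for 12.2%. The makeup of the epithelial cells moved with the mouse, since top enterocytes were 222 of 919 cells in Control replicate 1 and 2 of 758 in EC-Foxc-DKO replicate 2, and its part in these values was not tested.

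The opposite standing of Reg3a and the 2 abundant lectins in bottom enterocytes of EC-Foxc-DKO replicate 2 can also be given as proportions. Reg3a was 2.30%, 1.83%, 1.10% and 0.166% of the UMIs of the 4 members in bottom enterocytes of the 4 mice. This share uses the same counts and falls when Reg3b rises, so it is not separate support. Reg3a was not lowest in that mouse in every type. In Sprr2-high cells it was at 29.97, 29.9 and 43.24 CPM in Control replicate 1 and EC-Foxc-DKO replicates 1 and 2. In crypt cells Control replicate 2 (7.775 CPM) was lowest, but on 4 UMIs and near the lymphocyte level of that mouse (4.169 CPM). Over every barcode of the libraries, kept or not, there were 14184, 1585, 5398 and 2124 UMIs of Reg3a beside 608575, 61495, 528413 and 972506 of Reg3b. Leaving the 4 members out of the library sizes changed neither direction nor call.

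**Figure D4:**
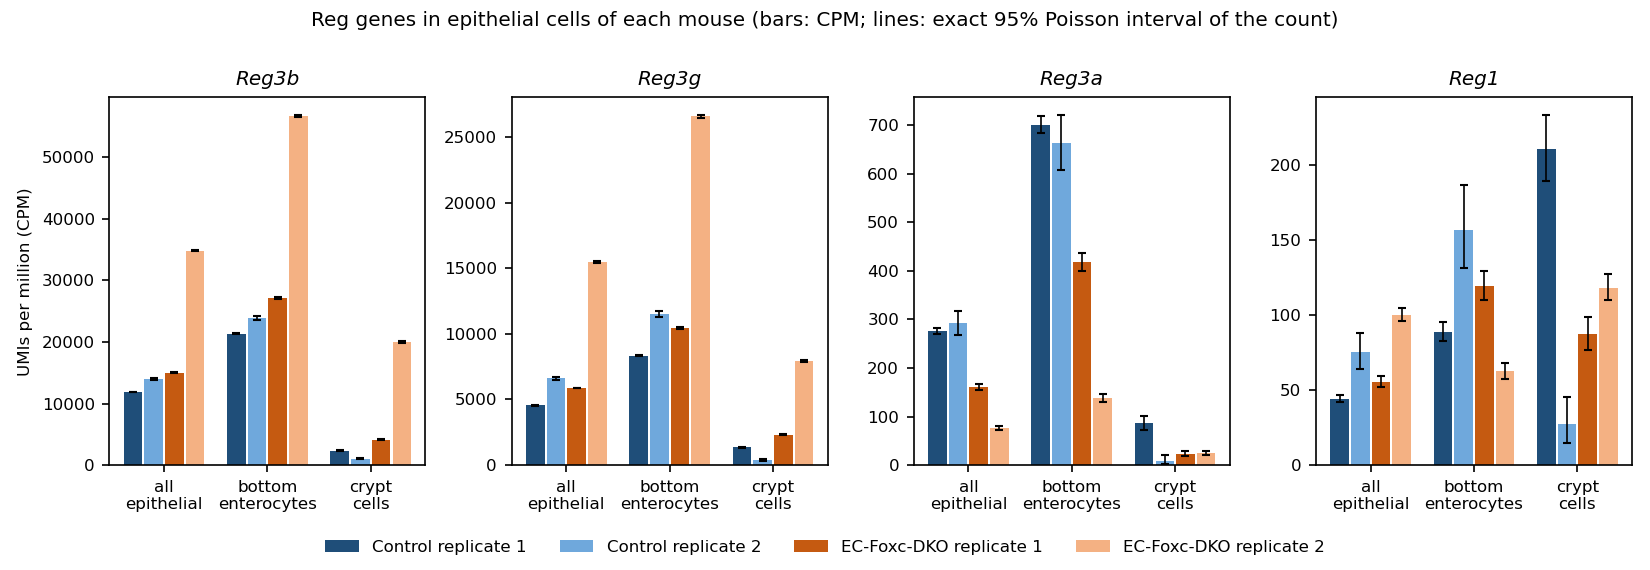
CPM of each Reg gene in all epithelial cells, bottom enterocytes and crypt cells of each mouse, with the exact 95% Poisson interval of the count, which covers counting error only. In bottom enterocytes EC-Foxc-DKO replicate 2 is highest for Reg3b (56738 CPM) and Reg3g (26574 CPM) and lowest for Reg3a (138.6 CPM), and for these 3 genes the EC-Foxc-DKO mice lie further apart than the controls.

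Genes known to act upstream of the Reg3 genes were read in the same sums. None of the 4 tested cytokine receptor genes, 7 JAK-STAT and feedback genes, 4 microbe sensing genes and 9 intestinal transcription factor genes passed the test in either direction in bottom enterocytes. The medians of their log2 differences were 0.13, 0.09, -0.05 and -0.09, against 0.00 over all genes. Estimates were above 0 for 5 of the 7 JAK-STAT and feedback genes and 4 of the 9 transcription factor genes. Pim1 (-0.70 ± 0.22), Socs3 (-0.55 ± 0.29) and Elf3 (-0.77 ± 0.28) were among those under 0, and Klf4 (1.63 ± 0.58) among those above it. Stat3 was at 50.6, 43.9, 62.8 and 62.6 CPM (0.42 ± 0.22), higher in both EC-Foxc-DKO mice than in both controls, as were 16.2% of the genes tested. Jak1 was at 64.6 to 72.7 CPM. Il10rb and Il17rc, receptor chains for interleukin-22 and interleukin-17, were at 65.3 to 96.3 and 108.3 to 150.3 CPM, while Il22ra1, the other chain of the interleukin-22 receptor, was at 0 to 1.7 CPM.

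The ligands were sparse in these cells. Il22 had 1, 7, 54 and 0 UMIs over all kept cells of the 4 mice, of which 7 and 43 were in the CD4+ T cells of those with 7 and 54. Il17a had 0, 4, 51 and 8 UMIs, and Il6, read mainly in macrophages, had 5, 4, 17 and 45. EC-Foxc-DKO replicate 2 had no UMI of Il22 in its kept cells. The CD4+ T cells kept numbered 3, 16, 100 and 16 in the same order. With a mitochondrial limit of 20% they numbered 8, 17, 113 and 100. Most of these cells of EC-Foxc-DKO replicate 2 were thus left out of the Il22 count. The part of Il22 in the Reg3b levels was not tested. Il18, the cytokine ligand with the highest level in enterocytes, was at 415.6, 452.2, 409.7 and 648.3 CPM in bottom enterocytes.

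Other antimicrobial effectors were read in the same cells. Of 22 listed effectors, 11 were tested in bottom enterocytes and 0 passed in either direction, with a median log2 difference of 1.20 and 9 estimates above 0. In crypt cells 12 were tested and 0 passed (median 0.98, 10 above 0). Lcn2, which binds bacterial siderophores, was at 1.4, 31.7, 12.4 and 566.7 CPM in bottom enterocytes. Dmbt1, a mucosal scavenger receptor, was at 83.9, 102.4, 132.7 and 433.6 CPM, and Saa1, an acute-phase protein, at 0.7, 3.7, 1.4 and 68.9 CPM. EC-Foxc-DKO replicate 2 was highest for these 3, which were picked after their values were seen, and for Lcn2 and Saa1 the other EC-Foxc-DKO mouse lay between the controls.

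The 2 tested effectors with an estimate under 0 in bottom enterocytes were Pigr (-0.59 ± 0.34) and Nos2 (-0.96 ± 0.90). Pigr, the receptor that carries IgA to the lumen, was at 1594, 1611, 1446 and 667.8 CPM in bottom enterocytes, and Nlrp6, an inflammasome sensor, at 316.5, 309.6, 329.4 and 152.9 CPM, both lowest in EC-Foxc-DKO replicate 2, as Reg3a was. Klf4, an enterocyte differentiation factor that is also on the villus-top list, was at 89.2, 40.2, 92.5 and 314.5 CPM, highest in that mouse. In goblet and Paneth cells, the Paneth cell product Lyz1 was at 460.8, 143.3 and 1680 CPM in Control replicate 1, EC-Foxc-DKO replicate 1 and EC-Foxc-DKO replicate 2, and Ang4 at 48.5, 5.31 and 562.2 CPM. Among these mice both were highest in EC-Foxc-DKO replicate 2, like Reg3b and Reg3g in that cluster. Control replicate 2, with 4 such cells, was left out of this order. Over all epithelial cells of the 4 mice the estimates were under 0 for Lyz1 (-2.25 ± 1.56) and Ang4 (-0.18 ± 1.87), and neither passed. The part of Lyz1 and Ang4 in the Reg values was not tested.

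**Figure D5:**
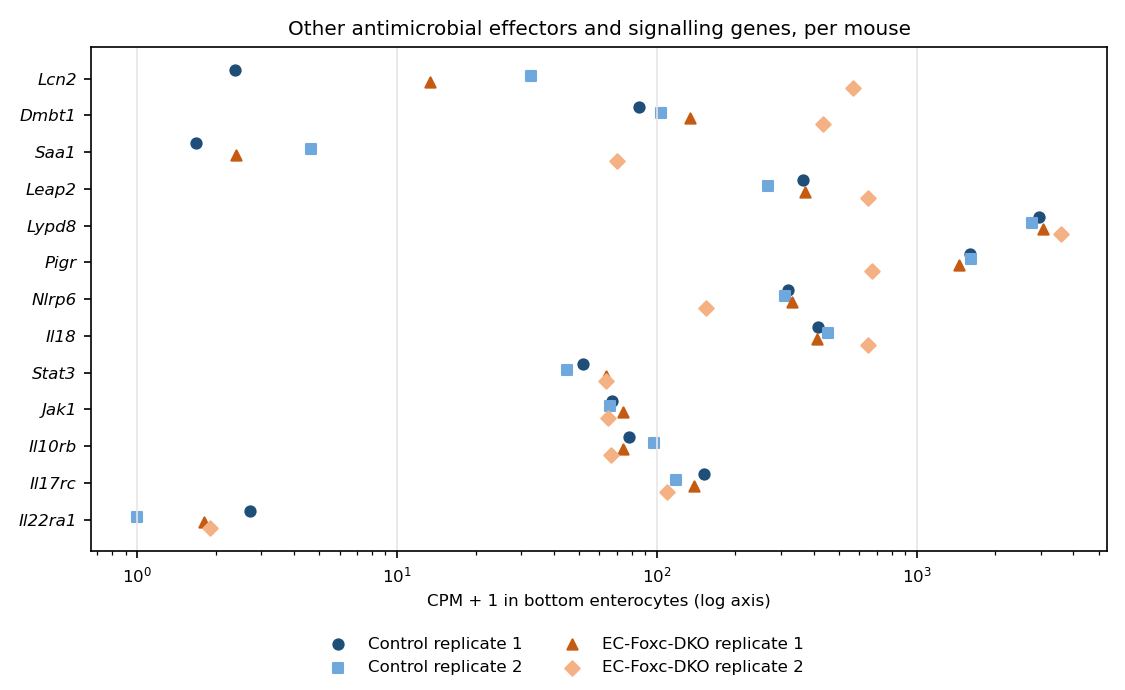
Level (CPM + 1, log axis) in bottom enterocytes of antimicrobial effectors and signalling genes, 1 point per mouse. EC-Foxc-DKO replicate 2 is highest for Lcn2 (566.7 CPM), Dmbt1 and Saa1 and lowest for Pigr (667.8 CPM) and Nlrp6. On this axis the 4 mice lie close together for Stat3 and Jak1, with both EC-Foxc-DKO mice above both controls for Stat3.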

How the data were processed

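Cells from the distal jejunum of 4 mice, 2 per genotype, were captured by droplet 3′ sequencing, 1 library per mouse. The authors deposited raw UMI counts per gene and barcode, made against mm10 with Cell Ranger, version 4.0.0 in the submitters' processing notes, and a joined count table whose gene column alone was used, for the mitochondrial share (18407 genes). Barcodes with over 10% mitochondrial UMIs were left out. Cells were normalised to 10000 UMIs, and clustered without the 4 members on 2921 variable genes (15 components, 15 neighbours, Leiden resolution 0.5, leidenalg 0.10.2), and clusters were named from listed markers. The doublet caller (Scrublet in scanpy 1.11.5) marked 8, 0, 2 and 6 cells, too few to be used, so doublets were kept in the main analysis. In an alternative the 77, 10, 161 and 44 cells with the highest doublet scores were removed.

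Levels are UMIs per 1000000 per mouse and type, with at least 10 cells. Groups were compared by edgeR 4.0.16 on summed counts (filterByExpr, TMM, quasi-likelihood, adjusted p 0.05). A permutation of 2 against 2 mice cannot go below p 0.333. Intervals are exact at 95% and cover counting error only. The named genes were the members, for each member the 5 genes with the highest r among those with a mean of at least 10 CPM, and the highest list genes. Of these, 1 is not reported here. Other list genes with values, such as Lcn2, Saa1 and Il22, were named after their values were seen. Members and lists were chosen with earlier results of these data known. The fits were also run on simulated counts with known changes, and the outcome of that run is not given here. Alternatives were DESeq2 1.42.0, other scaling, filters, clustering, cell limits, removal of doublets and leaving out each mouse.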

Additional observations from a re-analysis of the deposited data

Results flagged for a closer look

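The barcodes left out for a mitochondrial share over 10%, which the comparisons at that limit did not use, also held the lectins. Reg3b in them was at 6640 and 2843 CPM in the controls and at 6990 and 14414 CPM in the EC-Foxc-DKO mice, so that the lower EC-Foxc-DKO value (6990 CPM) was above both controls, although it exceeded Control replicate 1 by little. Both EC-Foxc-DKO mice had less Reg3a there, 68.18 and 31.78 CPM against 156 and 85.06 CPM. The flag on Reg3b required that both EC-Foxc-DKO mice lie above both controls. The share of all genes whose groups lay apart in this way was not computed in these barcodes. They were pooled without cell types, so their levels also depend on how many were epithelial, which was not measured. Of the kept cells, 63.55%, 22.7%, 22.57% and 70.25% were epithelial in Control replicates 1 and 2 and EC-Foxc-DKO replicates 1 and 2. The groups overlapped for Reg3g, with 2642 and 1406 CPM in the controls and 2545 and 6957 CPM in the EC-Foxc-DKO mice, and for Reg1.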

How the results depend on the processing

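Members past the threshold numbered 0 in all epithelial cells under every alternative run, and 0 of 14 member tests over the 5 cell types. That second number was 3 with no filter on low genes (Reg3a in bottom enterocytes, Reg3b and Reg3g in crypt cells), and 0 to 3 on leaving out a mouse. Genes of any kind past the threshold in all epithelial cells, bottom enterocytes and crypt cells numbered 0, 0 and 0, with 7, 6 and 4 by DESeq2, 84, 156 and 97 with no filter, and 0 to 65, 0 to 883 and 7 to 204 on leaving out a mouse. The cause was not tested. Reg3b and Reg3g kept a higher estimate in EC-Foxc-DKO mice, and Reg3a a lower one, in all 15 alternatives in all epithelial cells and bottom enterocytes. Reg1 turned direction on leaving out a mouse, with ranges of -0.01913 to 0.78 in all epithelial cells, -0.82 to 0.0441 in bottom enterocytes and -1.003 to 1.91 in crypt cells, as did Reg3a in crypt cells (-1.77 to 1.64). With a clustering resolution of 1.0 the bottom enterocytes numbered 178, 28, 117 and 184 in the 4 mice, against 193, 27, 122 and 347. A cluster of 276 cells nearest to bottom enterocytes by its markers, led by Car4, Dmbt1, Ms4a18 and Lcn2, was then left unnamed. At that resolution Reg1 in bottom enterocytes was at -1.73.

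The replicate numbers mark no shared litter or day in the sources used here, and same-numbered mice deviated together with a correlation of 0.21 in all epithelial cells, -0.14 in bottom enterocytes and -0.30 in crypt cells. With the replicate block 2, 0 and 0 genes and 0 members passed, and Reg1 in crypt cells turned to 0.23. With the numbers crossed, an alternative chosen after the data were seen, 1, 57 and 8 genes and 2 member tests passed, and Reg1 in crypt cells was at 0.13.

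With a mitochondrial limit of 20% the mean lymphocyte level moved to 653.2 CPM for Reg3b, 308.5 for Reg3g, 5.99 for Reg3a and 0.26 for Reg1, so that background depends on which barcodes count as cells. With 2 bins instead of 4 the differences along the villus were 0.92 log2 units for Reg3b, 0.59 for Reg3g, 2.88 for Reg3a and 2.66 for Reg1. With the study's markers alone, which hold the same villus-bottom genes, they were 2.07, 1.86, 4.14 and 4.53. Every other level moved by less than 1 SD over mice under the alternatives run. Leaving out 1 of 4 mice cannot move a mean that far, so this limit does not measure the dependence on a mouse. On leaving out a mouse, the mean in crypt cells ranged from 2489 to 8827 CPM for Reg3b and from 1360 to 3877 CPM for Reg3g. There were 2 mice per group and 15 to 39 crypt cells in 3 of them. Even estimates of 2.84 for Reg3b and 2.54 for Reg3g in crypt cells did not pass, so a missing call is not evidence of no difference.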
